A study of Mus musculus with 15 samples.

Results

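The genes described here are the homeodomain patterning transcription factors of the mouse, 129 of the 26628 gene rows in the table, found by symbol alone: the Dlx, LIM-homeodomain (Lhx, Lmx1, Isl), Emx, Satb, Cux, En, Gbx, Otx, Barhl, Pax, Irx, Meis, Pbx, Nkx, POU, Shox2 and Hox genes, and Six3 with its relatives. Of these, 55 passed the filter on low values (at least 1 CPM, a count scaled to a library total of 1000000, in 3 or more samples) and were tested among 15213 genes. The other 74, which include all 39 Hox genes, are described without a test unless stated. RNA sequencing was run on whole cerebellum (Ce) and whole striatum (St) of male mice of strain Hsd:ICR, labelled as 6 weeks old, which lived alone in cages with a running wheel during the days before dissection. The Hi mice came from 1 line bred over many generations for high voluntary wheel running, and the Co mice from 1 line kept without that selection, which gave the groups CeCo (4 samples), CeHi (4), StCo (4) and StHi (3). The paper set a further StHi sample aside before testing, because it deviated from its group in a principal component analysis. Both lines had the wheel, so no group was sedentary, and with 1 line on each side a result of selection and a chance difference between the lines cannot be told apart. In bulk tissue, fewer cells of a type and less RNA per cell cannot be told apart.

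Homeodomain proteins bind DNA through a shared fold and prefer short sites built around the letters TAAT. In the embryo they divide the neural tube into territories: the Dlx, Six3 and Nkx2-1 genes are used in the forebrain from which the striatum grows, the Irx, Barhl2, Shox2 and Lhx9 genes in the thalamus and other caudal parts, the En, Pax2 and Gbx2 genes at the border of midbrain and hindbrain from which the cerebellum grows, and the Hox genes in the hindbrain and spinal cord. Many of these genes stay on in adult neurons and glia. Levels are given as normalized counts, which are sequenced fragments per gene divided by a factor for each sample. A fragment was worth 0.841 to 1.30 normalized counts, and 3 fragments in a sample is the floor: no fold is given where both groups lie at or below it, and against a group at or below it the ratio of pooled fragments is given with its counting interval, or a lower bound where that group is at 0.

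The promoters of 5 members that passed a line comparison are shown here, since the line results below turn on these genes. Each run holds the 250 bases before the RefSeq start (GRCm38.p6), 5′ to 3′ on the strand of the gene, with TAAT or its reverse complement ATTA in capitals. The windows are chr13:72628570-72628819 on the plus strand for Irx2 and, on the minus strand, chr8:91801655-91801904 for Irx3, chr3:66981772-66982021 for Shox2, chr1:138842445-138842694 for Lhx9 and chr7:139582798-139583047 for Nkx6-2.
Irx2: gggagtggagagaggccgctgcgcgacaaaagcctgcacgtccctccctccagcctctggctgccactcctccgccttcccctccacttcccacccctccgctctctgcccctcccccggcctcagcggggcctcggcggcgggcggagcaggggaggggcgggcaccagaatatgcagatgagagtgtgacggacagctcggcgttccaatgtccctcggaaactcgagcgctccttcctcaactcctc
Irx3: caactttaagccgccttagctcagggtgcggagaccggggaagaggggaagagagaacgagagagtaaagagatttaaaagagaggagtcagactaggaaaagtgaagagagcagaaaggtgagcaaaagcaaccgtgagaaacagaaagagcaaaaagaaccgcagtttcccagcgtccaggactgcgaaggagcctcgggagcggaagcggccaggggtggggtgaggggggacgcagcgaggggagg
Shox2: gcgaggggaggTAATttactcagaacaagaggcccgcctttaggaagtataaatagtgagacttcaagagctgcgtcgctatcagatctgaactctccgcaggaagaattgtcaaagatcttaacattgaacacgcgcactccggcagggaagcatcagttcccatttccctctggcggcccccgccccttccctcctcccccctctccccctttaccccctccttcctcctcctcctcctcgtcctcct
Lhx9: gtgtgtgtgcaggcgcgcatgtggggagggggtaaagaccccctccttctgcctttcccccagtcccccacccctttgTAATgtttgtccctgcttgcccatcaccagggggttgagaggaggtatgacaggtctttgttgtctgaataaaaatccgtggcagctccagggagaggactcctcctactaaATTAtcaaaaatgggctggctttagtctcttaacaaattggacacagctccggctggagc
Nkx6-2: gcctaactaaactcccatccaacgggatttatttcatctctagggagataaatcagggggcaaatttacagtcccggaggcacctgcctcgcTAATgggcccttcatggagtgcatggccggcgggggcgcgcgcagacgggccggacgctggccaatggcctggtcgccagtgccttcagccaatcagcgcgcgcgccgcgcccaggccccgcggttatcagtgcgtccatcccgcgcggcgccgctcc
On either strand, TAAT stood 2 times in the Lhx9 window, 1 time in that of Shox2, 1 time in that of Nkx6-2 and 0 times in those of Irx2 and Irx3. Among 27025 RefSeq promoters of the same length 55.3% held it, against 44 of the 88 member promoters in that set (50.0%), a similar share. TATAAA, also searched on both strands, stood in the Shox2 window alone among these 5, and in 13.0% of all promoters and 9.09% of the member promoters. The member promoters held a median of 14 CG dinucleotides against 6 over all promoters, with 26 in the Nkx6-2 window, 19 in that of Irx2 and 4 in that of Lhx9. Irx5, En2 and Dlx5 have no entry in the table used.

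The samples held 32909383 to 47485535 fragments each. Striatal projection neuron markers summed to 4994 to 7027 CPM in St and 359 to 416 in Ce, and cerebellar granule neuron markers to 6440 to 7783 CPM in Ce and 224 to 302 in St, so every sample matched its labelled region. CeHi replicate 3 stood apart for single genes, with 1183 normalized counts of Tcf7l2, a gene of thalamus and tectum, where the rest of Ce held 176 to 237, and 109 of the striatal gene Drd2, where the rest held 18.7 to 33.6. Its list sums did not all stand apart. Thalamus and habenula markers summed to 452 CPM, against 425 to 489 in CeCo and 353 to 373 in the other CeHi samples. Striatal projection neuron markers summed to 382 CPM, against 359 to 387 and 393 to 416. Midbrain tectum markers summed to 10.1 CPM, against 4.44 to 5.05 in the rest of Ce. Choroid plexus markers ranged from 27.1 to 3067 CPM among Ce samples and from 34.8 to 442 CPM among St samples, and cortical markers were lowest in StHi replicate 1 (619 CPM against 932 to 1534 in the other St samples).

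The region comparison asked where each gene is transcribed in the adult brain. Of the 55 tested members, 23 were higher in Ce and 29 in St (limma, adjusted P-value < 0.05). The background was 80.2% of all tested genes, 40.6% higher in Ce and 39.6% higher in St. Differences of over 8-fold were more frequent among the members, at 33 of 55, than among all genes, at 5.73%. Within the Co line 22 members were higher in Ce and 28 in St (background 74.7%, 37.8% and 36.9% by direction), and within the Hi line 21 and 30 (background 70.5%, 35.4% and 35.1%). Cux2, Nkx6-2 and Shox2 were the 3 members that did not pass over both lines.

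Per kilobase of exon, the highest members in Ce were En2 (59.8 ± 7.3 CPM per kilobase, SD, n = 8), Barhl2 (19.5 ± 2.4), Pbx2 (16.0 ± 0.69) and Lhx1 (10.7 ± 0.57). In St they were Meis2 (27.6 ± 2.8 CPM per kilobase, n = 7), Pbx2 (18.8 ± 0.74), Pou3f1 (18.4 ± 1.5), Pou6f1 (14.7 ± 0.98) and Pou3f3 (14.7 ± 1.2). In Ce, En2, Barhl2, Pbx2 and Lhx1 each stood apart from the neighbour below by more than 1 SD, the one below Lhx1 being Pou6f1 (9.47 ± 0.31). In St, Pbx2 and Pou3f1, and Pou6f1 and Pou3f3, differed by less than their spread.

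**Figure D1:**
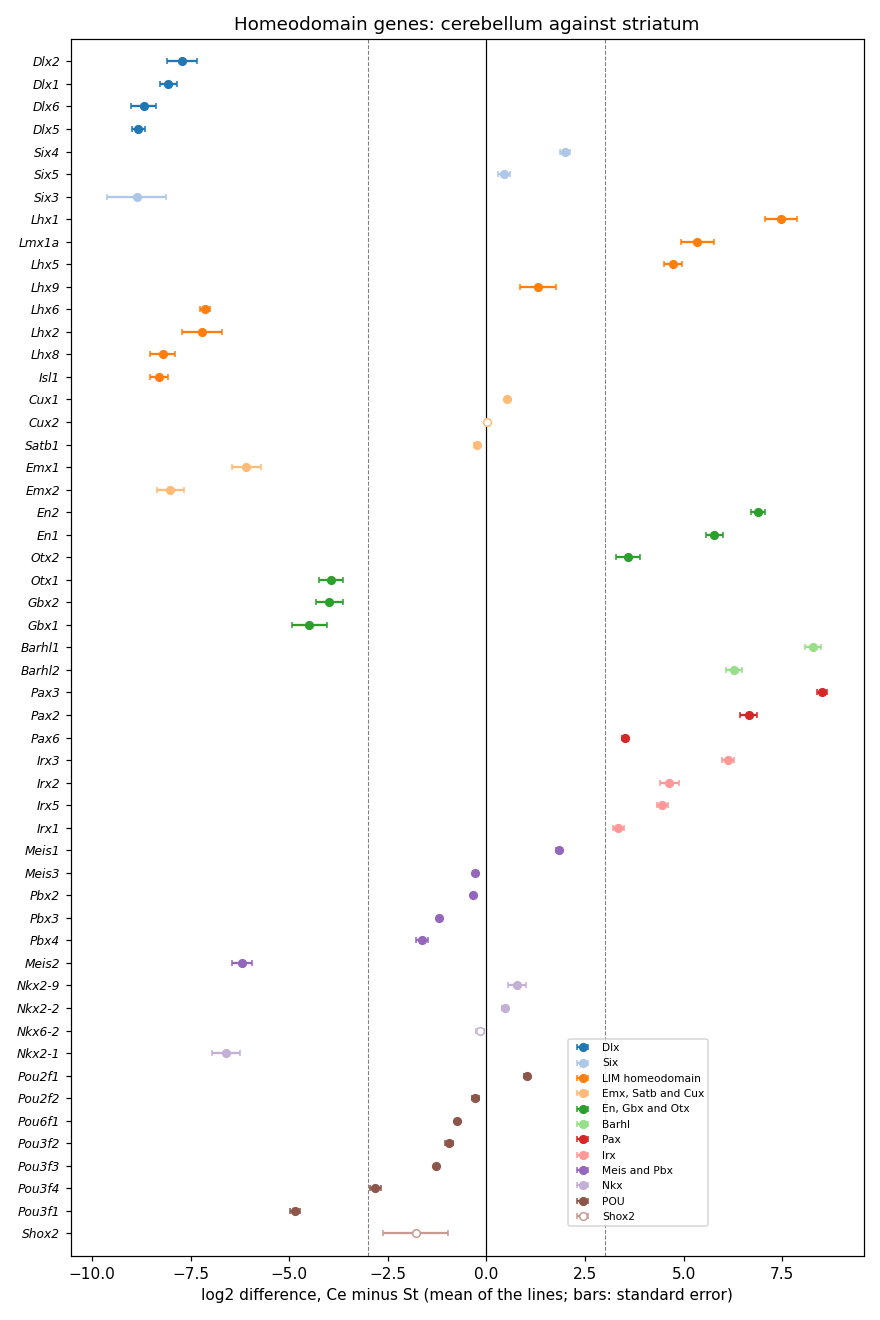
Log2 difference between cerebellum and striatum (Ce minus St, x axis) for 53 of the 55 tested members, grouped and coloured by family; filled points passed the test, open points did not, bars are standard errors and dashed lines mark 8-fold. The Dlx genes sit far to the left and the Pax, Barhl and Irx genes to the right, and the Pbx genes lie between the dashed lines.

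The Dlx genes specify GABA neurons of the ventral forebrain, and all 4 tested members were over 8-fold higher in St. Dlx6, the highest of them in St, had 821, 774, 841 and 833 normalized counts in StCo and 710, 897 and 1046 in StHi, against at most 3.17 in any Ce sample. Dlx5, its neighbour on chromosome 6, had 664, 595, 869 and 670 in StCo and 638, 824 and 831 in StHi. In Ce, Dlx5 was at 0 in all 4 CeCo samples and at 2.52, 1.05, 0.926 and 2.11 in CeHi, which is 3, 1, 1 and 2 fragments, at or under the floor in every sample. The ratio of pooled fragments, St over Ce, was 833 for Dlx5 (exact 95% interval 404 to 2073, counting error only). Dlx2 was at 358, 583, 687 and 484 in StCo and 400, 497 and 505 in StHi, and did not exceed 6.34 in Ce. Dlx4, an untested and low member, went the other way: every Ce sample (29.8, 33.9, 25.6 and 25.8 in CeCo and 38.7, 32.7, 33.3 and 41.2 in CeHi) lay above every St sample (16.0, 5.93, 11.6 and 4.57 in StCo and 6.49, 5.83 and 15.4 in StHi).

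Six3, a forebrain gene that striatal neurons of the indirect pathway require, had 2941, 2430, 2834 and 2816 normalized counts in StCo and 2612, 3139 and 3253 in StHi. The CeCo samples held 3.73, 3.57, 2.56 and 1.78, and 3 of the CeHi samples 5.05, 2.11 and 1.85, while CeHi replicate 3 held 179. The log2 difference Ce minus St was -8.87 ± 0.76 (SE), with an adjusted P-value of 2.3e-07, and it was -9.56 without CeHi replicate 3. Six5, the highest of its family in Ce, showed a much smaller gap, with 131, 136, 183 and 127 in CeCo and 104, 108, 155 and 139 in CeHi against 71.3 to 134 in St (log2 difference 0.45 ± 0.14, adjusted P-value 0.00875).

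The LIM-homeodomain genes divided by territory, with 4 of 8 tested members higher in Ce and 4 in St. Lhx1 and Lhx5, which act in Purkinje cell differentiation, led in Ce. Lhx1 had 1645, 1887, 1629 and 1574 normalized counts in CeCo and 1844, 1735, 1754 and 1662 in CeHi (log2 difference from St 7.48 ± 0.41, adjusted P-value 9.6e-10). Lhx5 had 723, 775, 730 and 764 in CeCo and 839, 920, 999 and 969 in CeHi, and its lowest CeHi sample lay above its highest CeCo sample. Lmx1a, kept in unipolar brush cells of the cerebellum, had 115, 74.9, 123 and 89.9 in CeCo and 59.7, 121, 86.1 and 30.6 in CeHi, a wide spread within both lines. On the St side stood Lhx2, a forebrain gene with 1432, 1659, 1378 and 1585 in StCo and 1589, 1381 and 1259 in StHi. With it were Lhx6 and Lhx8, genes of interneurons and cholinergic neurons from the medial ganglionic eminence, and Isl1, a gene of direct-pathway striatal neurons, with log2 differences of -7.14, -8.21 and -8.30.

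En2, an engrailed gene used from the isthmus of the embryo to the adult cerebellum, had 9368, 9764, 8522 and 9251 normalized counts in CeCo and 8257, 7174, 7382 and 7119 in CeHi, and exceeded St by 6.88 ± 0.18 on the log2 scale (adjusted P-value 1.3e-13). En1, its paralog, and Otx2 were also Ce genes, whereas Gbx1, Gbx2 and Otx1 were higher in St, and all 6 members of this group differed over 8-fold. Otx1, a gene of deep cortical layers, had 141, 127, 114 and 107 in StCo, 134, 96.1 and 123 in StHi and 1.85 to 16.8 in Ce. Both Barhl genes, which mark cells of the rhombic lip, were Ce genes. Barhl2 had 1912, 1655, 1403 and 1949 in CeCo and 1721, 2160, 1639 and 1802 in CeHi, and Barhl1 had 641 to 822 in Ce against at most 2.59 in St.

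The 3 tested Pax genes, all with a paired domain beside the homeodomain or part of one, were Ce genes. Pax3, a gene of the dorsal neural tube, had 332 to 393 normalized counts in Ce and 0 fragments in all 7 St samples, at least 112-fold higher in Ce against a floor of 3 fragments per library. Pax6, kept in granule neurons, had 4706, 4773, 3902 and 4393 in CeCo, 4357, 4097, 4098 and 3963 in CeHi, 310, 445, 392 and 372 in StCo and 381, 367 and 360 in StHi. Pax2, a gene of cerebellar GABA interneuron precursors, had 309, 342, 300 and 297 in CeCo and 326, 351, 362 and 316 in CeHi, against 4.94, 0.989, 6.30 and 2.74 in StCo and 1.30, 0.971 and 2.37 in StHi. The regions did not overlap for any of these genes, and the 2 lines did within Ce.

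The Irx (Iroquois) genes lie in 2 clusters, Irx1 and Irx2 on chromosome 13 and Irx3 and Irx5 on chromosome 8, and all 4 tested members were over 8-fold higher in Ce (log2 differences 3.35 to 6.12). Irx3, the highest in Ce, had 895, 614, 798 and 1062 normalized counts in CeCo and 611, 824, 812 and 699 in CeHi. Irx1, the highest in St, had 345, 399, 388 and 374 in CeCo and 383, 342, 440 and 556 in CeHi, against 39.5, 32.6, 32.6 and 17.4 in StCo and 53.2, 51.5 and 45.1 in StHi. The lines overlapped in Ce for both genes and did not in St.

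The TALE genes Meis and Pbx, whose proteins bind DNA beside other homeodomain proteins, were measured in both regions and mostly differed by less than 8-fold. Meis2, a gene of striatal projection neurons, was the exception, with 15068, 13059, 12848 and 15860 normalized counts in StCo and 11893, 15108 and 15315 in StHi. In Ce it had 139, 132, 207 and 159 in CeCo and 192, 222, 129 and 560 in CeHi, CeHi replicate 3 being the highest. Among the POU genes, Pou2f1, a widely expressed octamer-binding factor, was the 1 of 7 that was higher in Ce. It had 3092, 3286, 3200 and 2987 in CeCo, 3461, 3826, 2925 and 2640 in CeHi, 1297, 1575, 1658 and 1548 in StCo and 1470, 1705 and 1593 in StHi, and 18.1% of its exon bases are shared with Cd247 on the opposite strand, whose reads cannot be told apart without strand.

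Among the cortical genes, Emx1 and Emx2 were St genes, with log2 differences Ce minus St of -6.09 and -8.02. Cux1, a gene of upper layers that is also widely expressed, had 4147, 4034, 3808 and 3870 normalized counts in CeCo and 4428, 4019, 3787 and 4144 in CeHi, above the 2910, 2773, 2521 and 2548 of StCo and the 2828, 3021 and 2974 of StHi. Cortex borders the striatum, and the levels of 2 cortical members in St were set beside 8 cortical projection neuron markers that are not members. Over the 7 St samples, log2 Satb1 and the log2 summed marker level had Pearson's r = 0.951 and Spearman's rho = 0.929 (exact permutation P-values 0.00198 and 0.00675, adjusted 0.00625 and 0.0202 over 6 relations), with r = 0.800 without the 2 samples farthest from the median, StHi replicates 1 and 2. Emx1 gave r = 0.920 and rho = 0.893 (exact permutation P-values 0.00417 and 0.0123, adjusted 0.00625 and 0.0246), and r = 0.541 without them, so its relation rests in part on those samples.

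Otx2, a gene of the choroid plexus as well as of some cerebellar granule neurons, was set beside the plexus markers in the same way. It had 537, 429, 636 and 497 normalized counts in CeCo and 445, 622, 533 and 499 in CeHi, with the lines overlapping. Over the 8 Ce samples r was 0.890 and rho 0.929 (exact permutation P-values 0.00377 and 0.00223, adjusted 0.00625 and 0.0134), with r = 0.772 without the 2 farthest samples. Over the 7 St samples r was 0.702 and rho 0.679 (exact permutation P-values 0.0349 and 0.11, adjusted 0.0419 and 0.13), and r fell to 0.229 without the 2 farthest, so that relation rests on them. The last relation, Nkx6-2 with oligodendrocyte markers in Ce, gave r = 0.588 and rho = 0.571 (exact permutation P-values 0.12 and 0.15, adjusted 0.12 and 0.15), with r = 0.421 without the 2 farthest.

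**Figure D2:**
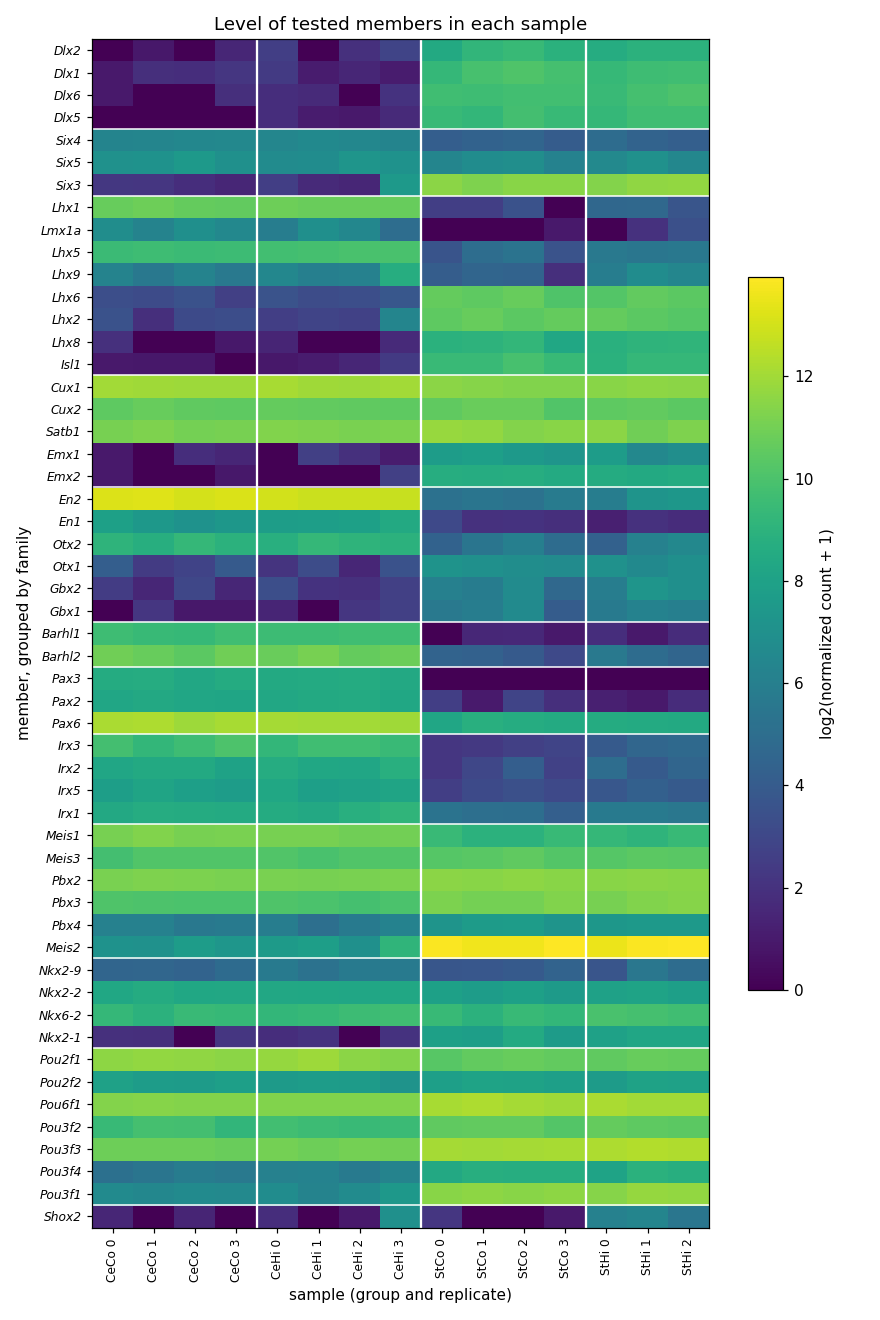
Level of 53 of the 55 tested members (rows, grouped by family) in each of the 15 samples (columns, group and replicate), coloured by log2(normalized count + 1). Ce and St differ in most rows, CeHi replicate 3 is brighter than the other Ce columns for Six3, Lhx2, Lhx9 and Shox2, and Shox2 is bright in that sample and in the 3 StHi samples.

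The line comparison in striatum asked which genes differ there between the selected and the control line. Of the 55 members, 6 were higher in StHi than in StCo and 0 lower: Irx2, Irx3, Irx5, En2, Nkx6-2 and Shox2 (limma, adjusted P-value < 0.05). This is 10.9% of the members, against a background of 2.66% of all tested genes, 1.49% higher and 1.17% lower in StHi. The median log2 difference was 0.090 over the members and -0.0046 over all genes tested. Shox2 passed the filter on low values through 3 samples only, StHi replicates 0 and 1 and CeHi replicate 3, so its entry into the test depended on the group where it was high. The members were also chosen with earlier results of these data known, and the paper lists En2 and Shox2 among its differing genes. The share is therefore a description and not an independent test. For En2, which it lists for the interaction, the paper gives both directions in St. It describes Lhx1 as lower in Hi in St, and Dlx5 and Six3 as lower in Hi in Ce. Here Lhx1 was higher by value in StHi. Dlx5, at or under the floor, and Six3, through CeHi replicate 3, were higher by value in CeHi.

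Irx3 (chr8:91798525-91802067 in GRCm38, minus strand), which patterns the thalamus and hindbrain, had 3.70, 3.96, 5.25 and 6.40 normalized counts in StCo and 14.3, 23.3 and 26.1 in StHi. Every StHi sample was more than 2-fold above every StCo sample, and all were far below the level in Ce. The log2 difference StHi minus StCo was 1.91 ± 0.23 (adjusted P-value 5.8e-05), and Irx3 passed in all 15 fits that left out 1 sample and under each other setting tried. Irx5 (chr8:92357625-92376286, plus strand), its cluster neighbour, had 4.94, 7.91, 9.45 and 7.31 in StCo and 13.0, 18.5 and 14.2 in StHi, again without overlap (0.96 ± 0.20, adjusted P-value 0.0142). The call for Irx5 was lost without StHi replicate 1 (adjusted P-value 0.0844), with edgeR (0.0760), with DESeq2 (0.10) and with St fitted alone (0.22).

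Irx2, in the other cluster, had 3.70, 6.92, 16.8 and 5.48 normalized counts in StCo and 31.1, 14.6 and 22.6 in StHi, so StCo replicate 2 lay above StHi replicate 1 and the groups overlapped (1.49 ± 0.35, adjusted P-value 0.0290). Its call was lost without StCo replicates 0, 1 or 3 or StHi replicates 0 or 2 (adjusted P-value 0.0662 to 0.11), with edgeR (0.0838), with St fitted alone (0.17) and with a replicate block (0.0619). Irx1, whose values were given above, did not overlap between the lines and did not pass (0.74 ± 0.22, adjusted P-value 0.0812), and passed without StCo replicate 0 (0.0398). Some 4.49% of the exon bases of Irx3 are shared with Irx3os on the opposite strand, and reads of the pair cannot be told apart without strand.

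En2 had 35.8, 41.5, 37.8 and 54.8 normalized counts in StCo and 59.7, 150 and 164 in StHi. The groups did not overlap, and StHi replicates 1 and 2 were far above StHi replicate 0. The log2 difference was 1.41 ± 0.26 (adjusted P-value 0.00983), and the call was lost without StHi replicate 1 (0.0590) and with St fitted alone (0.0721). In Ce the direction was the opposite, all CeHi samples lying under the lowest CeCo sample, and the contrast did not pass there (-0.31 ± 0.24, adjusted P-value 0.54) except with Ce fitted alone (0.0114). Cerebellar granule neuron markers in St, given beside En2, summed to 224 to 299 CPM in StCo and 230 to 302 in StHi (log2 difference 0.067, exact permutation P-value 0.69, adjusted 0.83), and Gabra6, the defining one, had 10.5 to 23.8 and 12.6 to 22.6 normalized counts.

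Shox2, a gene of thalamic neurons and of the cardiac pacemaker and limb, was near the floor in StCo and present in every StHi sample. It had 3.70, 0, 0 and 0.914 normalized counts in StCo, which is 4 fragments in all, and 68.7, 81.6 and 42.7 in StHi. The ratio of pooled fragments was 63.8 (exact 95% interval 24.5 to 237, counting error only). The fitted log2 difference was 5.19 ± 1.22 (adjusted P-value 0.0315). The call was lost without StCo replicates 1, 2 or 3 or StHi replicate 2 (adjusted P-value 0.0637 to 0.0975), with edgeR (0.11), with DESeq2 (0.0651) and with a pseudocount of 0.1 (0.0734). Without StHi replicate 0, StHi replicate 1 or CeHi replicate 3 Shox2 did not reach the filter and had no value. It shares 4.62% of its exon bases with Rsrc1 on the opposite strand.

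Nkx6-2, a gene of myelinating oligodendrocytes, had 669, 504, 667 and 606 normalized counts in StCo and 970, 919 and 801 in StHi. The groups did not overlap and the difference was moderate (log2 0.55 ± 0.13, adjusted P-value 0.0338). It was lost without StCo replicates 1 or 3 or StHi replicates 0 or 1 (adjusted P-value 0.0655 to 0.12) and where the moderation used neither a trend nor robust variances (0.0619). In Ce it had 620, 505, 704 and 651 in CeCo and 600, 662, 769 and 823 in CeHi, overlapping groups that did not pass (0.20 ± 0.12, adjusted P-value 0.41). It shares 12.9% of its exon bases with Inpp5a on the opposite strand.

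Of the 20 marker lists, 3 did not overlap between the lines in St, and 0 passed after adjustment in either region. Thalamus and habenula markers summed to 107 to 161 CPM in StCo and 178 to 191 in StHi, with no overlap (log2 difference 0.56, exact permutation P-value 0.0571, adjusted 0.23, two-sided). Tcf7l2, which defines thalamic neurons, had 198 to 379 normalized counts in StCo and 541 to 724 in StHi, and Slc17a6, the glutamate transporter of thalamic neurons, 551 to 1202 and 1794 to 2284. Plekhg1 was the member of that list that passed by itself (log2 0.47 ± 0.09, adjusted P-value 0.00463). Oligodendrocyte markers summed to 2427 to 3577 CPM in StCo and 3732 to 4104 in StHi, again without overlap (log2 difference 0.40, exact permutation P-value 0.0571, adjusted 0.23). Hindbrain and raphe markers, near 1 CPM in St, went the other way, with 1.10 to 1.34 CPM in StCo and 0.638 to 0.831 in StHi (log2 difference -0.72, exact permutation P-value 0.0286, adjusted 0.23). Choroid plexus markers were at 34.8 to 57.9 CPM in StCo and 49.8 to 442 in StHi, with overlap (log2 difference 1.51, exact permutation P-value 0.0571, adjusted 0.23). Among the other glia, astrocyte markers differed by -0.061 and microglia markers by -0.020 (log2, exact permutation P-values 0.54 and 0.63). With 3 against 4 samples the smallest two-sided P-value of this exact permutation test is 0.0286. The lowest reached in Ce was also 0.0286. Since the adjustment ran over all lists in both regions, a list could pass only if many others reached that minimum with it. With groups of this size the lack of passing lists therefore cannot decide whether these tissues differed between the lines. The part of these tissues in the Irx, Shox2, En2 and Nkx6-2 differences was not tested.

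**Figure D3:**
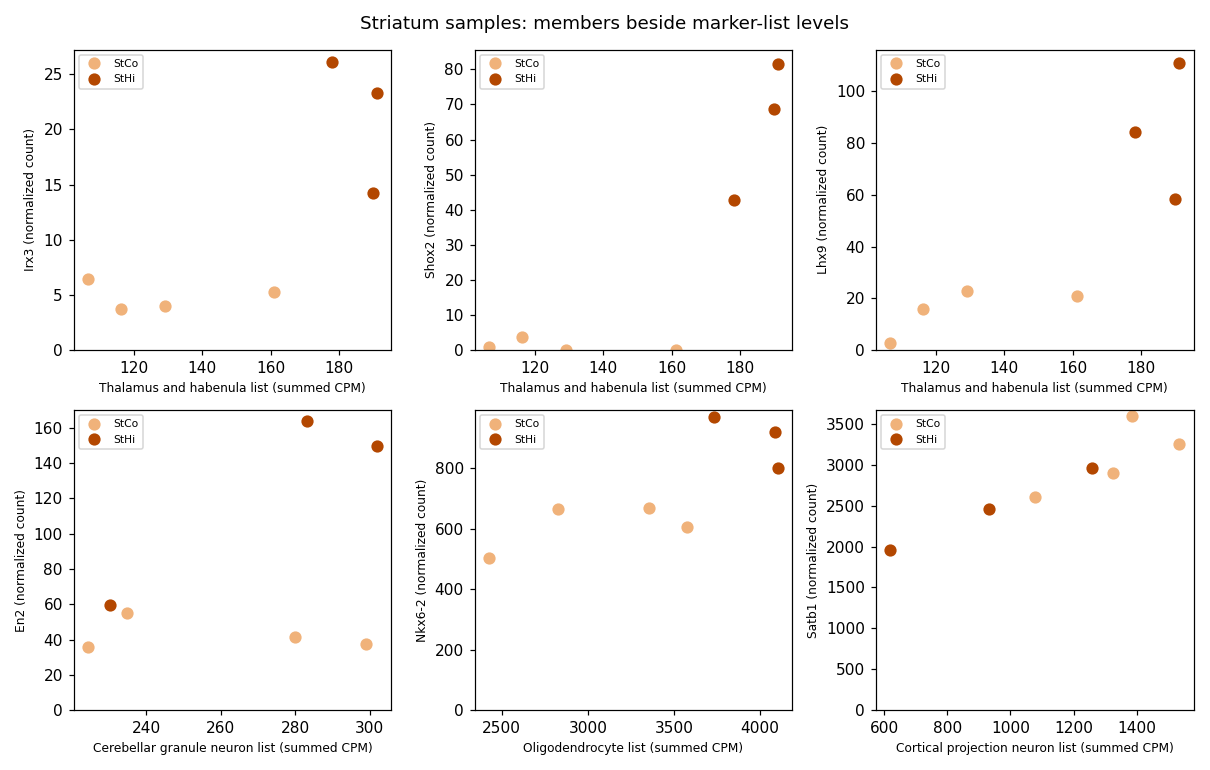
Normalized count of 6 members (y axes) against the summed CPM of a marker list (x axes) in the 7 striatum samples, by line. For Irx3, Shox2 and Lhx9 beside thalamic markers and Nkx6-2 beside oligodendrocyte markers the StHi samples lie to the right of and above StCo, En2 separates the lines at granule neuron levels that overlap, and Satb1 is lowest in the StHi sample with the lowest cortical marker level.

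Other members of the thalamus and caudal brain were higher in every StHi sample than in any StCo sample and did not pass. Lhx9, a gene of thalamic neurons, had 16.0, 22.7, 21.0 and 2.74 normalized counts in StCo and 58.4, 111 and 84.3 in StHi (log2 2.61 ± 0.67, adjusted P-value 0.0598), and passed without CeHi replicate 3 (0.00969). Lhx1 had 4.94, 4.95, 10.5 and 0 in StCo and 24.6, 25.2 and 11.9 in StHi (2.19 ± 0.60, adjusted P-value 0.0794), and passed with edgeR (0.0199) and without StCo replicates 2 or 3 (0.0220 and 0.00617). For both genes the StCo group was spread widely relative to its level. Lhx5 had 11.1, 30.7, 38.9 and 11.0 in StCo and 49.3, 42.7 and 46.3 in StHi (1.18 ± 0.33, adjusted P-value 0.0755), and passed without StCo replicates 1 or 2 (0.0468 and 0.00475). Barhl2 had 21.0, 18.8, 14.7 and 7.31 in StCo and 49.3, 30.1 and 22.6 in StHi (1.10 ± 0.29, adjusted P-value 0.0622), and passed without StCo replicate 0 (0.0372) or StHi replicate 2 (0.0418). Lmx1a, with 0, 0, 0 and 0.914 in StCo and 0, 2.91 and 9.50 in StHi, overlapped between the lines and passed only without StHi replicate 0 (0.0145) among the fits that left out 1 sample. With all samples kept, DESeq2 called Lhx9 (adjusted P-value 0.0215), Lhx1 (1.4e-05), Lhx5 (7.5e-04), Barhl2 (0.00258) and Lmx1a (0.0405). Sample weights called Lhx9, Lhx5 and Lmx1a, and quantile normalization Lhx9, Lhx1 and Lhx5. Of these genes edgeR called Lhx1 alone.

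Satb1, a chromatin organizer, was lower in StHi by value. It had normalized counts of 3588, 3251, 2599 and 2893 in StCo and 2963, 1953 and 2458 in StHi with overlap (log2 -0.34 ± 0.12, adjusted P-value 0.16), and passed without StHi replicate 0 (0.0273). Its level moved with that of the cortical markers across the St samples, as given above. Pax2, close to its floor in St, passed without StCo replicate 1 (0.0239). The genes of striatal territory gave no call: the line difference was 0.11 ± 1.11 for Six3, 0.13 ± 0.24 for Dlx5, -0.40 ± 0.33 for Isl1 and -0.020 ± 0.37 for Meis2 (log2, adjusted P-value 0.67 to 0.99). These SE come from 1 spread shared by the 4 groups. For Six3 it includes CeHi replicate 3 (179 normalized counts, next 5.05 in CeHi), so its SE is not the spread of the St samples.

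**Figure D4:**
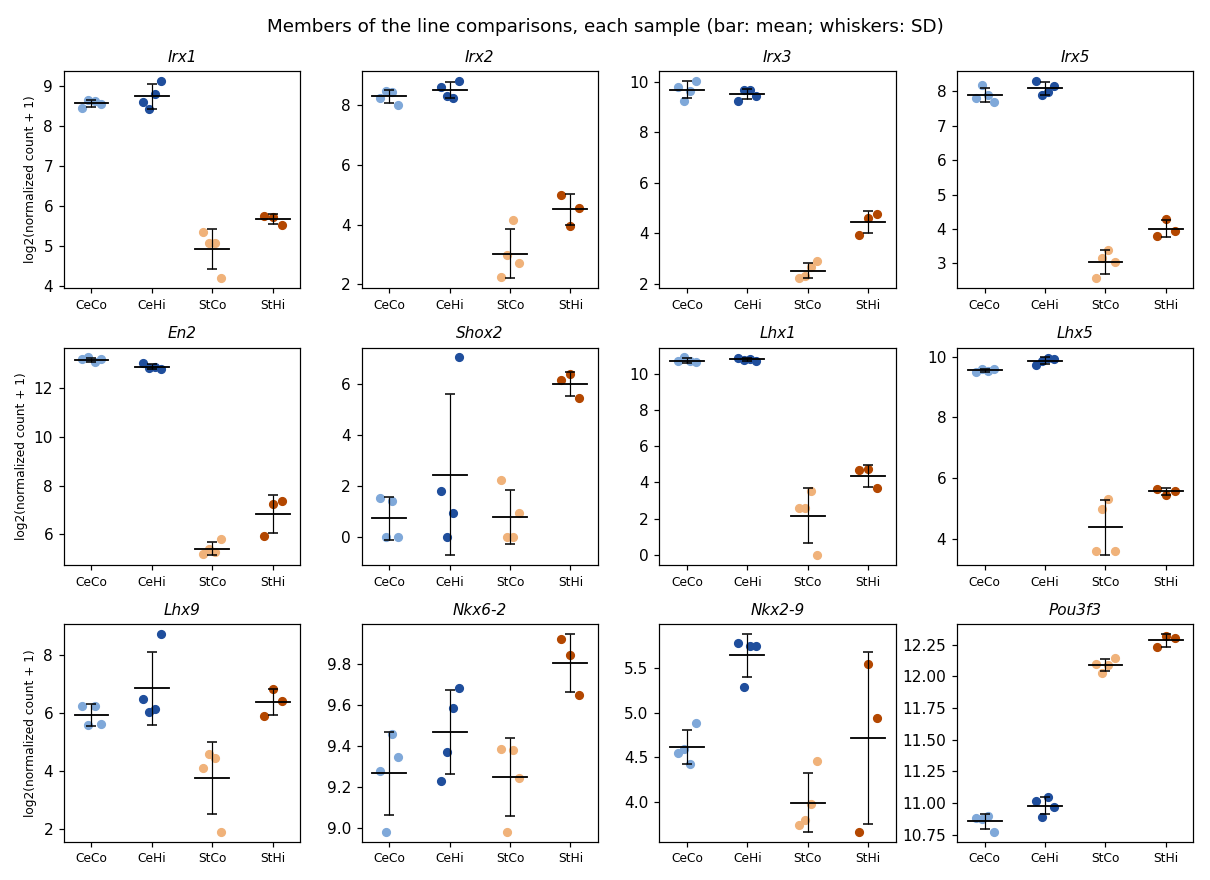
Log2(normalized count + 1) of 12 members (panels) in each sample of the 4 groups, with the group mean as a bar and the SD as whiskers; each panel has its own y range. The panels were chosen with the line results known, and the share of all genes without overlap is not given here. StHi lies above StCo without overlap in all panels but those of Irx2 and Nkx2-9. In Ce the lines do not overlap for Nkx2-9 and Lhx5, higher in CeHi, and En2, lower in CeHi.

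In cerebellum the line contrast called 1 of 55 members, Dlx5, higher in CeHi, against a background of 5.94%, 2.94% higher and 2.99% lower in CeHi. Its fitted log2 difference was 1.36 ± 0.22 (adjusted P-value 0.00102), but the values behind it, 0 in each CeCo sample and 1 to 3 fragments in each CeHi sample, are at or under the floor, so no fold is given. The call was lost with a pseudocount of 5 (adjusted P-value 0.13), with edgeR (0.0517) and with Ce fitted alone (0.14). Dlx2, with 0, 0.892, 0 and 1.78 normalized counts in CeCo and 5.05, 0, 2.78 and 6.34 in CeHi, did not pass (1.25 ± 0.50, adjusted P-value 0.18) except without CeHi replicate 1 (0.00427).

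Nkx2-9 (chr12:56611389-56613284), a gene of the ventral neural tube, had 22.4, 23.2, 20.5 and 28.5 normalized counts in CeCo and 53.8, 38.0, 52.8 and 52.8 in CeHi, without overlap. Only Hi samples reached 1 CPM of this gene, so its entry into the test depended on the line where it was high. Nkx2-9 missed the threshold in Ce (log2 1.02 ± 0.32, adjusted P-value 0.0698), and passed with edgeR (0.0315), with DESeq2 (0.0188), with Ce fitted alone (0.00926) and without StHi replicates 0 or 1 (0.0121 and 0.0374). Among the leading cerebellar members no difference passed: Lhx1 differed by 0.052 ± 0.55, Pax6 by -0.11 ± 0.09, Barhl2 by 0.080 ± 0.27, Irx3 by -0.18 ± 0.21 and Pax2 by 0.11 ± 0.31 (log2, adjusted P-value 0.54 to 0.97). Lhx5, whose CeHi samples all exceeded CeCo, differed by 0.31 ± 0.30 (adjusted P-value 0.63) and passed with DESeq2 (0.0250) and with Ce fitted alone (0.0210). The SE here use a spread shared by all groups, which for Lhx1 and Lhx5 includes their low St counts. Cerebellar granule neuron markers, given beside the lower En2 values of CeHi, were at 7145 to 7783 CPM in CeCo and 6440 to 7025 in CeHi (log2 difference -0.15, exact permutation P-value 0.0286, adjusted 0.23), and their part in them was not tested.

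The CeHi samples were not alike. In CeHi replicate 3, 6 members stood at over 3 times the next highest CeHi sample with at least 10 normalized counts, and in the other groups 0 members did so. They were Six3 with 179 normalized counts (next 5.05), Shox2 with 129 (next 2.52), Lhx2 with 81.4 (next 6.33), Pou4f2 with 59.2 (next 2.78), Lhx9 with 413 (next 87.5) and Pou4f1 with 25.4 (next 3.71). Pou4f1 and Pou4f2, POU factors of the habenula, tectum and sensory neurons, were not tested. The CeCo samples had 3.73, 5.35, 2.56 and 5.34 of Pou4f1 and 0.932, 0.892, 2.56 and 0.891 of Pou4f2, and the other CeHi samples 3.36, 2.11 and 3.71 and 0.841, 0 and 2.78. Lhx2 was at 10.3, 2.67, 7.68 and 8.91 in CeCo and 5.05, 6.33 and 5.56 in the other CeHi samples, and Shox2 at 1.86, 0, 1.71 and 0 and 2.52, 0 and 0.926. Lhx9 was at 74.6, 46.4, 74.2 and 48.1 in CeCo and 87.5, 64.3 and 69.5 in the other CeHi samples.

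All 6 were therefore within or near the range of CeCo in the other 3 CeHi samples. The same sample held 87.7 normalized counts of Tfap2d, a gene of the tectum, against at most 2.80 in the other Ce samples, and 2267 of Slc17a6 against 654 to 1190. Without it the Six3 line difference in Ce was -0.022 in place of 1.37 on the log2 scale, neither of which passed.

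Averaged over both regions, 9 of 55 members were higher in Hi and 0 lower, which is 16.4% of the members against a background of 8.48%, 4.34% higher and 4.14% lower. They were Irx2, Irx3, Irx5, Shox2, Nkx6-2 and Dlx5, described above, with Lhx9, Nkx2-9 and Pou3f3. That share is descriptive, since Shox2 entered the test through its high samples and members were chosen with earlier results of these data known. Nkx2-9 reached 1 CPM in Hi samples only, so its entry also depended on the line where it was high. Samples of both regions were fitted as independent, though some may share an animal. Pou3f3, a POU factor of upper cortical layers and other neurons, had 1886, 1871, 1910 and 1746 normalized counts in CeCo and 2066, 1892, 2112 and 2005 in CeHi, and 4383, 4183, 4362 and 4534 in StCo and 4804, 5124 and 5043 in StHi. The lines overlapped in Ce and not in St, and the mean difference was small (log2 0.15 ± 0.04, adjusted P-value 0.0131) and passed in all 15 fits that left out 1 sample. Nkx2-9 had 12.3, 12.9, 14.7 and 21.0 in StCo and 11.7, 45.6 and 29.7 in StHi (mean of the regions 0.87 ± 0.23, adjusted P-value 0.0273), and was lost without CeHi replicate 2, StCo replicates 0 or 1 or StHi replicates 1 or 2 (adjusted P-value 0.0501 to 0.0822).

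Lhx9 (1.76 ± 0.46, adjusted P-value 0.0294) included the high value of CeHi replicate 3 and passed without that sample as well. It was lost without CeCo replicates 1 or 3 or StHi replicates 1 or 2 (0.0562 to 0.0761) and with a replicate block (0.0774). Irx2 (0.84 ± 0.24, adjusted P-value 0.0360) was lost in 10 of the 15 fits that left out 1 sample (0.0518 to 0.0907), with a replicate block (0.0574) and where the moderation used neither a trend nor robust variances (0.0510). For Irx2, Irx3 and Irx5 the mean over regions came mainly from St, since the line differences in Ce were 0.20, -0.18 and 0.19 on the log2 scale. Dlx5 (0.74 ± 0.16, adjusted P-value 0.00875) rested on the values at the floor in Ce, its difference in St being 0.13, and was lost with a pseudocount of 5 (0.16).

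The test of whether the line difference itself differed between regions called 1 member, Irx3, against a background of 0.532%, 0.256% positive and 0.276% negative. The line difference of Irx3 was -0.18 ± 0.21 in Ce and 1.91 ± 0.23 in St, an interaction of -2.09 ± 0.31 (log2, adjusted P-value 0.00418), and it passed under every setting tried. En2 missed the threshold (-1.72 ± 0.36, adjusted P-value 0.0558) and passed with edgeR (0.00915), with DESeq2 (1.6e-05), with sample weights (0.00592), with a pseudocount of 5 (0.0490), with quantile normalization (0.0385) and without StHi replicate 0 (1.1e-05). Shox2 did not pass (-3.48 ± 1.66, adjusted P-value 0.54) except with a replicate block within line (0.0291). Lhx1 (-2.14 ± 0.82, adjusted P-value 0.39), Lhx9 (-1.70 ± 0.92, adjusted P-value 0.62), Irx2 (-1.28 ± 0.47, adjusted P-value 0.34) and Irx5 (-0.77 ± 0.28, adjusted P-value 0.32) did not pass either. Irx2 passed without StCo replicate 2 (0.0337), and Lhx1 with DESeq2 (1.5e-04). Among members not yet named here, Barhl2 passed with DESeq2 (0.0402), Lmx1a with DESeq2 (0.0485) and without StHi replicate 0 (0.0481), and Dlx5, in the opposite direction, with a pseudocount of 0.1 (0.00124) and with quantile normalization (0.0405). For the members other than Irx3 a difference between the regions thus depended on the setting or did not pass.

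The Hox genes, which pattern the hindbrain and spinal cord, were mostly near or under the floor. Of 39, 15 had 0 fragments in all samples, 22 had at most 3 fragments in every sample, and none reached the filter. In St 36 of 39 stayed at 3 fragments or fewer in every sample. Hoxd8 (chr2:74704615-74707933, plus strand) had the highest mean normalized count of the Hox genes in both regions, not corrected for length, and its values were split within the Hi line. It had 0.932, 0.892, 1.71 and 0 normalized counts in CeCo and 37.8, 0, 27.8 and 25.4 in CeHi, and 0, 0, 0 and 0 in StCo and 0, 15.5 and 23.7 in StHi. CeHi replicate 1 and StHi replicate 0 were thus at 0 like Co samples, and the other 5 Hi samples lay above every Co sample. The ratio of pooled fragments was 26.6 in Ce (exact 95% interval 10.1 to 99.6, counting error only). In St the mean of StHi was at least 4.17-fold higher than the StCo floor of 3 fragments per library.

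Its neighbours in the HoxD cluster had lower mean counts. Per kilobase of exon, Hoxd1 was above Hoxd8 in St (0.0595 against 0.0482 CPM per kilobase) and below it in Ce (0.0424 against 0.109), in both regions by less than the SD of Hoxd8 between samples. Hoxd1 had 0.932, 0.892, 0.853 and 0.891 normalized counts in CeCo, 7.57, 2.11, 7.41 and 4.23 in CeHi, 3.70, 0.989, 2.10 and 2.74 in StCo and 1.30, 12.6 and 9.50 in StHi. Hoxd9 had 0 in all 8 Co samples, 4.20, 0, 2.78 and 5.28 in CeHi and 0, 0.971 and 2.37 in StHi. CeHi replicate 1 and StHi replicate 0 were the lowest of their groups for Hoxd1, Hoxd8 and Hoxd9. Where the filter was left out and 21831 genes were tested, Hoxd1, Hoxd8, Hoxd9, Hoxd13 and Hoxa3 passed over both regions (adjusted P-value 0.0263 to 0.0466) against a background of 6.36%, and Hoxd9 and Hoxd13 in Ce (0.0452 and 0.0233) against 4.02%. These Hox genes were singled out after their values were seen, and at 45 fragments or fewer in any sample their levels are close to the counting limit.

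**Figure D5:**
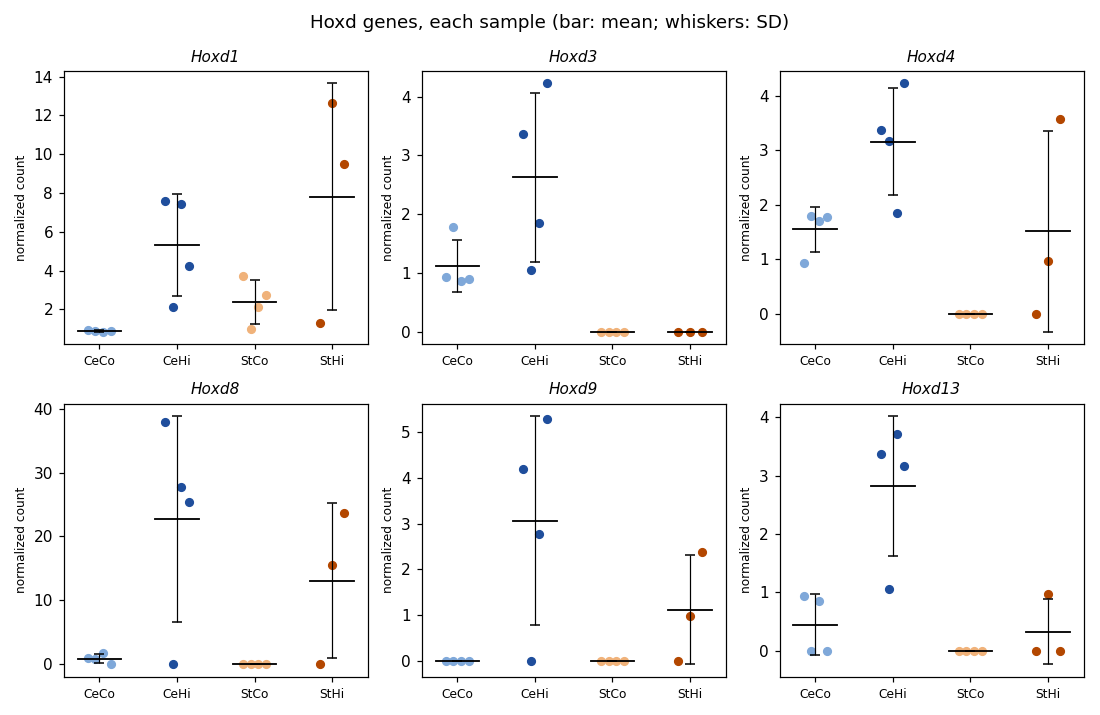
Normalized counts of 6 Hoxd genes (panels, each with its own y range) in each sample of the 4 groups, with the group mean as a bar and the SD as whiskers. Hoxd8 reaches 37.8 in CeHi and 23.7 in StHi while every Co sample is at 1.71 or lower, and 1 sample of each Hi group sits at 0.

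The other untested members were mostly near the floor. In all, 36 of 129 members had at most 3 fragments in every sample, 18 of them 0 throughout, and 38 more were over the floor in some sample without reaching the filter. Of these 38, 14 reached 10 normalized counts in some sample. They included Lhx3, a gene of motor neurons and interneurons, with 10.3, 10.7, 26.5 and 11.6 in CeCo and 29.4, 21.1, 22.2 and 21.1 in CeHi, a range that overlapped.

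Genes that work with the members were taken from the same fit. Of 10 tested LIM-domain and LDB cofactors, 1 was higher and 7 lower in Ce than in St, against 40.6% and 39.6% of all genes, and Ssbp2, which stabilizes LDB complexes, was lower in Hi over both regions (log2 -0.17 ± 0.04, adjusted P-value 0.0142, background 4.14% lower). Of 6 Groucho corepressors, 6 Eya and Dach partners of Six3 and its relatives and 5 other TALE genes, 0 passed in a line comparison or the interaction, where 5.94% of all genes passed in Ce, 2.66% in St, 8.48% over both regions and 0.532% in the interaction. Among 14 other homeodomain genes outside the symbol rule, Prox1 was higher in Hi over both regions (0.37 ± 0.10, adjusted P-value 0.0291). Of 21 cerebellar transcription factors of other families 20 were higher in Ce (background 40.6%), and of 16 striatal ones 13 were higher in St (background 39.6%). Both lists were made of genes known for their use in these regions. Among these, Ebf2 (1.45 ± 0.30, adjusted P-value 0.0119) and Ikzf2 (0.56 ± 0.12, adjusted P-value 0.0147) were higher in StHi, and Nfia was lower in CeHi (-0.32 ± 0.08, adjusted P-value 0.0237).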

How the data were processed

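RNA sequencing of 15 samples (CeCo 4, CeHi 4, StCo 4, StHi 3) was used, grouped by the labels. Per the submitters' processing notes, the authors mapped reads with TopHat2 to GRCm38 (mm10) and ran Cuffdiff and Cuffnorm 2.2.1. The deposited values are a signal, gene counts divided by a size factor per sample with no correction for gene length, so they are not FPKM as the name of the table has it. Their smallest steps gave whole fragments for 99.6% to 99.8% of values up to 20.5 fragments (tolerance 0.1 fragment). Whether counting used strand is not given in the sources used here. Members and gene lists were chosen with earlier results of these data known.

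Genes with at least 1 CPM in 3 samples (15213) were fitted with limma 3.58.1 (R 4.3.3, trend and robust moderation) on log2(TMM-scaled value + 1), with 4 group means in 1 fit, differences as Hi minus Co and Ce minus St, and Benjamini-Hochberg adjustment over all tested genes. Differences on this scale understate the change of low genes. The SE of a log2 difference comes from 1 spread shared by the 4 groups, and can differ from the spread of the groups compared. The scripts were tested on simulated data. EdgeR 4.0.16 and DESeq2 1.42.0 on recovered fragments, other pseudocounts, filters and scalings, and left-out samples were alternatives. Marker lists were compared by two-sided exact permutation tests of log2 summed CPM, adjusted over 40 tests. Intervals and floors cover counting error only.

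Named members were those passing a line comparison or the interaction, those the study's text names, the highest of each family in each region, those changing call when 1 sample was left out, and those with 1 sample over 3 times the next. Others (Barhl1, Emx1, Emx2, En1, Gbx1, Gbx2, Hoxa3, other Hoxd genes, Isl1, Lhx3, Lhx6, Lhx8, Otx2, Pax3, Pbx2, Pou3f1, Pou6f1) were singled out after their values were seen. Some members, and 1 of the 6 relations, are not reported here. The tissue came from individual mice, but no label ties samples of the 2 regions to an animal. Same-numbered CeCo and StCo samples deviated together (residual r 0.171 to 0.278 over 4 pairs), and CeHi and StHi samples did not (-0.0751 to 0.0513 over 3 pairs). Differently numbered samples were not compared. If same-numbered samples share an animal, this bears on the region effect, the line effect over both regions and the interaction. These were fitted as if samples were independent. A positive correlation would make the SE of the line effect over both regions too small. Samples of different lines come from different animals. There r was -0.221 to 0.183 for CeCo with CeHi (4 pairs) and -0.0432 to 0.196 for StCo with StHi (3 pairs). Line comparisons within a region were not treated as paired. In the GRCm38 annotation used, 48 of the 129 members share exon bases with another gene.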

Additional observations from a re-analysis of the deposited data

Results flagged for a closer look

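In groups of 4 samples, 8 of 74 checked held a sample set far from the others (Dixon's test). The share is not compared with chance. A lone high sample was itself a reason to name a member, and genes that stand out in the same sample are not independent. Of these 8, 6 were CeHi replicate 3: Six3 at 179 normalized counts, Shox2 at 129, Lhx2 at 81.4, Lhx9 at 413, Pou4f1 at 25.4 and Pou4f2 at 59.2. That sample also held 1183 normalized counts of Tcf7l2 and 87.7 of Tfap2d, and the part of other tissue in these levels was not tested. The other 2 were Nkx2-9 in CeHi replicate 1, low at 38.0 against 52.8 in the nearest sample, and Six5 in CeCo replicate 2, high at 183 against 136.

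Irx3 differed between regions in its line difference, by -2.09 on the log2 scale in the interaction test. The Irx3 call was kept in the fit without CeHi replicate 3. Its line difference lay mainly in St. There the thalamus and habenula markers summed to 107 to 161 CPM in StCo and 178 to 191 in StHi. The part of other tissue in it was not tested.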

How the results depend on the processing

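For the named members, 2703 of 2845 values under an alternative kept their direction and their side of the threshold, 52 lost a call, 83 gained one and 7 changed direction; the cause was not tested. The count of called members moved by over 1.5 times as follows. In Ce (1) it was 0 with a pseudocount of 5, 2 with sample weights, 3 without the filter, with DESeq2 or with each region alone, and 1 to 2 leaving out 1 sample, 2 without CeHi replicate 1, StHi replicate 0 or StHi replicate 1. In St (6) it was 11 with quantile normalization or DESeq2, 12 with sample weights, 3 with each region alone, and 2 to 8 leaving out 1 sample, 2 without StHi replicate 1. Over both regions (9) it was 14 without the filter, 15 with DESeq2, and 6 to 12 leaving out 1 sample. In the interaction (1) it was 2 with a pseudocount of 0.1 or 5, sample weights, edgeR or a replicate block within line, 3 with quantile normalization, 5 with DESeq2, and 1 to 3 leaving out 1 sample, 2 without StCo replicate 2 and 3 without StHi replicate 0. The region count (52) was 52 or 53 leaving out 1 sample, 78 without the filter and 51 to 59 otherwise. With the longest transcript as length, 8 members in place of 4 reached 10 CPM per kilobase in Ce and 12 in place of 7 in St.

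Line differences in log2 that changed sign did not pass in either direction: Dlx2 in St with a replicate block (0.054), Barhl2 in Ce (-0.011 to 0.15 leaving out 1 sample), Six3 in Ce (-0.022 without CeHi replicate 3, up to 1.97), and in the interaction Six3 (-0.14 without CeHi replicate 3, up to 1.85 leaving out another, -0.14 with a replicate block within line) and Nkx2-9 (-0.0045 with quantile normalization, -0.22 to 0.72 leaving out 1 sample). With the median gene in place of the sum, 12 of 40 marker list differences changed sign: in Ce astrocytes (-0.093), endothelium (0.044), ependyma (-0.080), hypothalamus (0.016), microglia (0.021), midbrain dopamine (-0.074), pallidum (0.050), septum (0.18) and thalamus (0.18), and in St astrocytes (0.14), endothelium (0.048) and Purkinje neurons (-0.081).

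The replicate block ended the calls of Irx2 in St (adjusted P-value 0.0619) and of Irx2 and Lhx9 over both regions (0.0574 and 0.0774), and 140 of 149 values with a block kept their side and direction. Depth limits the Hox genes, Dlx5 in Ce and Shox2 in StCo, which rest on a few fragments, and 3 StHi samples limit every St comparison.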
